A study of Mus musculus with 9 samples.

Results

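Brown adipose tissue (BAT) releases peptides and proteins, often called batokines, that act on adipocytes, nerves, vessels and distant organs. The factors described here are Fgf21, Fgf9, Bmp8b, Gdf15, Nrg4, Metrnl, Slit2, Angptl2 and Il6, taken as a named list of 9 genes and found by their symbols. Rows were found for 8 of the 9 among the 16937 genes of the 3 tables, and each of the 8 was listed in all 3 tables. Il6 was not listed in the tables used here and is not analysed. RNA sequencing covered BAT of adult WT mice held at 4 °C for 8 h (WT Cold), whole body GCN2 KO mice held at 4 °C for 8 h (GCN2 KO Cold) and WT mice kept at 23 °C (WT RT), with 3 libraries in each group. All mice were on a C57Bl/6J background, were of both sexes in the study and had 5 days of single housing at 23 °C before the test. GCN2, encoded by Eif2ak4, is a kinase that senses amino acid shortage and starts the integrated stress response, and the question behind the comparisons was how its loss alters the reaction of BAT to cold. The design used here had no GCN2 KO group at room temperature, so a genotype difference in the cold response itself cannot be tested.

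As background, FGF21 is an endocrine growth factor that signals through an FGF receptor, mainly FGFR1, together with the co-receptor beta-Klotho (Klb), and its gene is a known target of ATF4, the transcription factor of the integrated stress response. GDF15 is a stress-induced hormone of the same pathway that acts on GFRAL receptors in the brain stem. FGF9 is a locally acting FGF. BMP8B is a ligand of the TGF-beta superfamily that raises the response of BAT to noradrenaline. NRG4 is an EGF-like ligand of ErbB receptors made in brown adipocytes, METRNL is a secreted protein induced by exercise and cold, SLIT2 is a guidance protein whose cleaved fragment acts on adipocytes, and ANGPTL2 is a pro-inflammatory angiopoietin-like protein.

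Depth was even, with 27056681 to 30766437 reads on the listed genes of a library, and no listed gene had fewer than 61 reads summed over the 6 libraries of a table. The letters A, B and C mark the libraries of a group and name no mouse. The codes of the WT RT libraries begin with other letters than all cold codes, and what these letters stand for is not given in the sources used here. Libraries WT Cold C and GCN2 KO Cold C stood apart from the rest: the summed level of 4 Y-linked genes was 17.6 and 21.7 CPM (reads scaled by the library total) in them against 187.3 to 286.7 CPM in the other 7, and Xist was 130.6 and 127.5 CPM against 11.2 to 43.5 CPM. The labels give no sex, and no comparison was made by it. All WT RT libraries were on the high Y-linked side (201.8 to 217.8 CPM), so WT RT and the cold groups were not balanced in this respect. The part of this imbalance in the differences from WT RT was not tested for any factor. Eif2ak4 was at 11.1 to 13.0 CPM in WT RT, 6.46 to 8.34 CPM in WT Cold and 11.8 to 12.7 CPM in libraries labelled GCN2 KO Cold. Its transcript was not lower under that label, and GCN2 KO Cold stands throughout for libraries so labelled. The title of a sample in that group reads 'GCN2 KO, WT', and its group was taken from its genotype and temperature fields. Which library came from that sample is not known. The deleted part of the gene is not given in the sources used here, and reads summed over the gene cannot show it. The brown adipocyte marker Ucp1 was at 3590 CPM or more in every library.

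The promoter of Fgf21 is shown first because Fgf21 is a known target of ATF4. Those of Fgf9 and Angptl2 follow, the only factors called in both cold groups against WT RT. Each run is the 250 bases before the gene start in RefSeq on GRCm38.p6, read 5′ to 3′ on the gene's strand, with matches to 5 searched motifs in capitals.
Fgf21, chr7:45615491-45615740, minus strand: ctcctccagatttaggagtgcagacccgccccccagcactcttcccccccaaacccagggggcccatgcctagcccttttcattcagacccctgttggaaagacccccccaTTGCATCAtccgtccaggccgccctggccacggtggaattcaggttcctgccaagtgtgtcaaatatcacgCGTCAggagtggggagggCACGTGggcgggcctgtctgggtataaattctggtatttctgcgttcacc
Fgf9, chr14:58072436-58072685, plus strand: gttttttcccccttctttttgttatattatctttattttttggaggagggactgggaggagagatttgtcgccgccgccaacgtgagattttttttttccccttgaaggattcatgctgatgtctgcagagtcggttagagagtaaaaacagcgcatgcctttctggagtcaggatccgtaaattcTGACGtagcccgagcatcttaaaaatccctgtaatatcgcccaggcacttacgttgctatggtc
Angptl2, chr2:33215711-33215960, plus strand: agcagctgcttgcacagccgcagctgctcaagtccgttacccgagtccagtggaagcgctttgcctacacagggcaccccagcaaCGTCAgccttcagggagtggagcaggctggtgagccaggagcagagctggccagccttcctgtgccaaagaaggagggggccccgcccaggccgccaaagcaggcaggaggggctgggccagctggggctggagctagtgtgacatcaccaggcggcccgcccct

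The motifs were searched on both strands: the cAMP response element TGACGTCA, its 5-base part TGACG, which lies inside it, the C/EBP-ATF response element TGATGNAA bound by ATF4 dimers, the NR4A element AAAGGTCA and the E-box CACGTG. The Fgf21 window held TTGCATCA, a TGATGNAA match on the other strand, 139 bases before the start, a TGACG match 68 bases before it and CACGTG 50 bases before it. TGATGNAA was present in 3.45% of 32851 promoters, CACGTG in 6.02%, TGACG in 17.8%, the full TGACGTCA in 1.55% and AAAGGTCA in 1.34%. Fgf9 had a TGACG match 64 bases before the start and Angptl2 a TGACG match 165 bases before it. These letters are a description of the windows and were not tested for binding. The Fgf9 window lies within the span of the gene in GENCODE M21, which begins at an earlier base.

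Transcript levels per length set the factors far apart. Taking CPM per kb of merged exon over all 9 libraries (mean ± SD), Nrg4 had the highest level at 20.8 ± 2.83, followed by Metrnl at 10.2 ± 3.60 and Angptl2 at 6.39 ± 3.69. Fgf21 at 2.42 ± 2.95, Gdf15 at 2.17 ± 0.905, Fgf9 at 1.35 ± 0.870 and Bmp8b at 1.13 ± 0.585 followed, and Slit2 was at 0.0466 ± 0.00766. Neighbours in this order overlapped, except for Bmp8b and Slit2. Angptl2 was above Fgf21 in 7 of 9 libraries, the exceptions being WT Cold C and GCN2 KO Cold C. Fgf21 was above Gdf15 in only 2 of 9 libraries and Fgf9 above Bmp8b in 5 of 9, whereas Bmp8b was above Slit2 in 9 of 9. Metrnl exceeded Angptl2 in 7 of 9 libraries, both exceptions being WT RT libraries, and Nrg4 exceeded Metrnl in 8 of 9. With the longest transcript in place of the merged exons, Nrg4 was at 60.3, Metrnl at 11.6, Angptl2 at 11.3 and Slit2 at 0.119 CPM per kb, and Gdf15 at 2.60 was ahead of Fgf21 at 2.42.

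**Figure D1:**
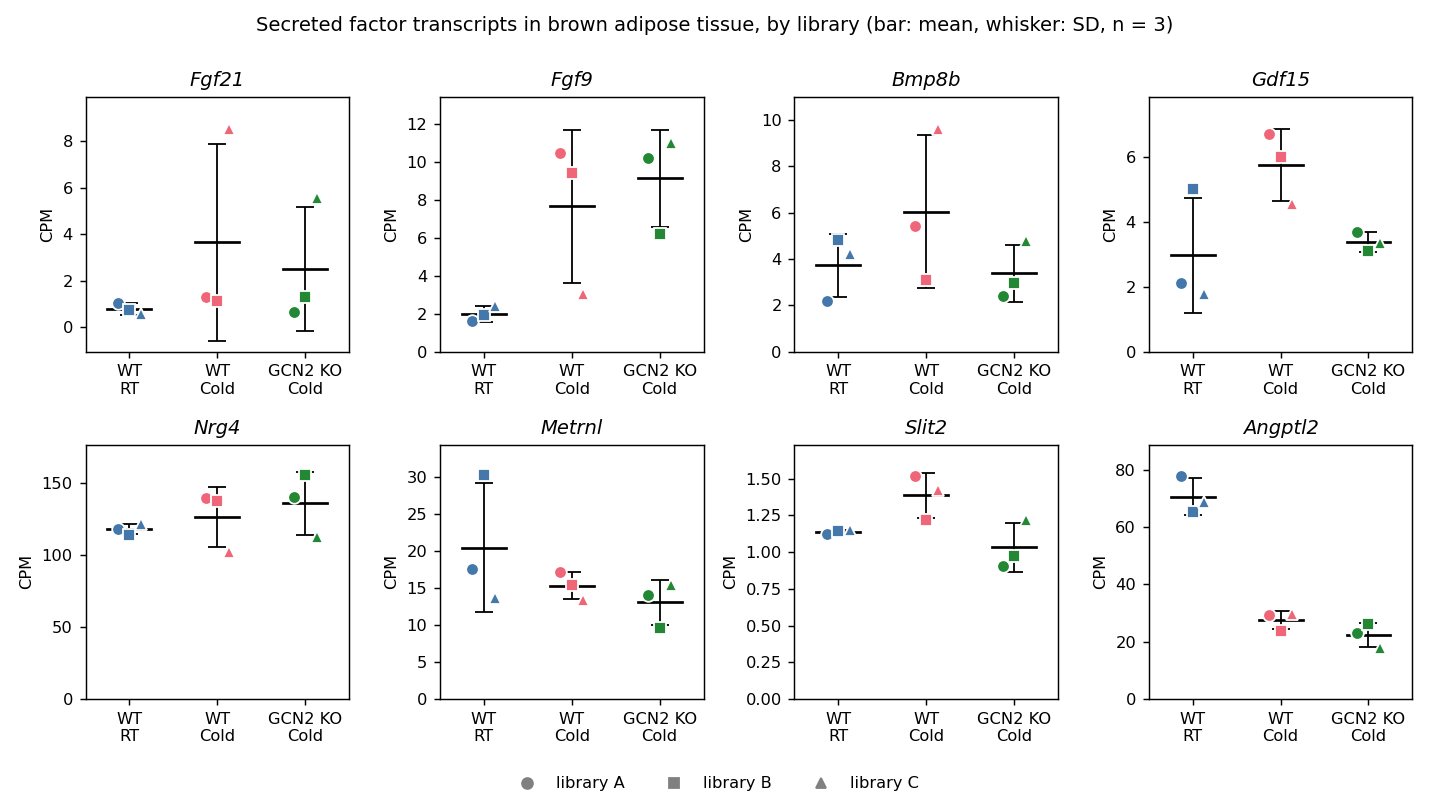
Levels of the 8 listed factors in each library, in CPM on the vertical axis, by group on the horizontal axis; symbols mark libraries A, B and C, bars the mean and whiskers the SD (n = 3). Angptl2 is above 65 CPM in WT RT and below 30 CPM in both cold groups, Fgf21 is high only in library C of each cold group, and Fgf9 is above the WT RT libraries in all 6 cold libraries.

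Groups were compared within each table with limma on log2(normalized count + 1), a scale on which the change of low genes is understated, and p-values were adjusted over all genes of the table by the Benjamini-Hochberg method. Nothing in the columns ties a library to a mouse, so p-values measure the spread between these libraries. In WT Cold against WT RT, 3 of the 8 factors passed an adjusted p of 0.05, with Fgf9 and Gdf15 higher and Angptl2 lower, and all 3 also had an absolute log2 fold change over 1. Over all 16679 genes of that table, 13.6% were called higher, 14.1% lower and 8.14% past both thresholds. The median log2 fold change of the 8 factors was 0.53, against 0.003 for all genes. With GCN2 KO Cold set against WT RT, 2 factors were higher (Fgf9 and Nrg4) and 1 lower (Angptl2), where 16.4% and 17.8% of all 16560 genes were called in these directions, and 2 of the 3 passed both thresholds, as 10.6% of all genes did. The median there was 0.24, against 0.009 for all genes. None of the 8 passed in GCN2 KO Cold against WT Cold with limma, DESeq2 or edgeR, and 1 (Gdf15) had an unadjusted p under 0.05. Calls were rare in that table, at 0.178% higher, 0.227% lower and 0.257% past both thresholds of 16312 genes. Both cold comparisons share the WT RT libraries, and their values are given side by side without a test of likeness.

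**Figure D2:**
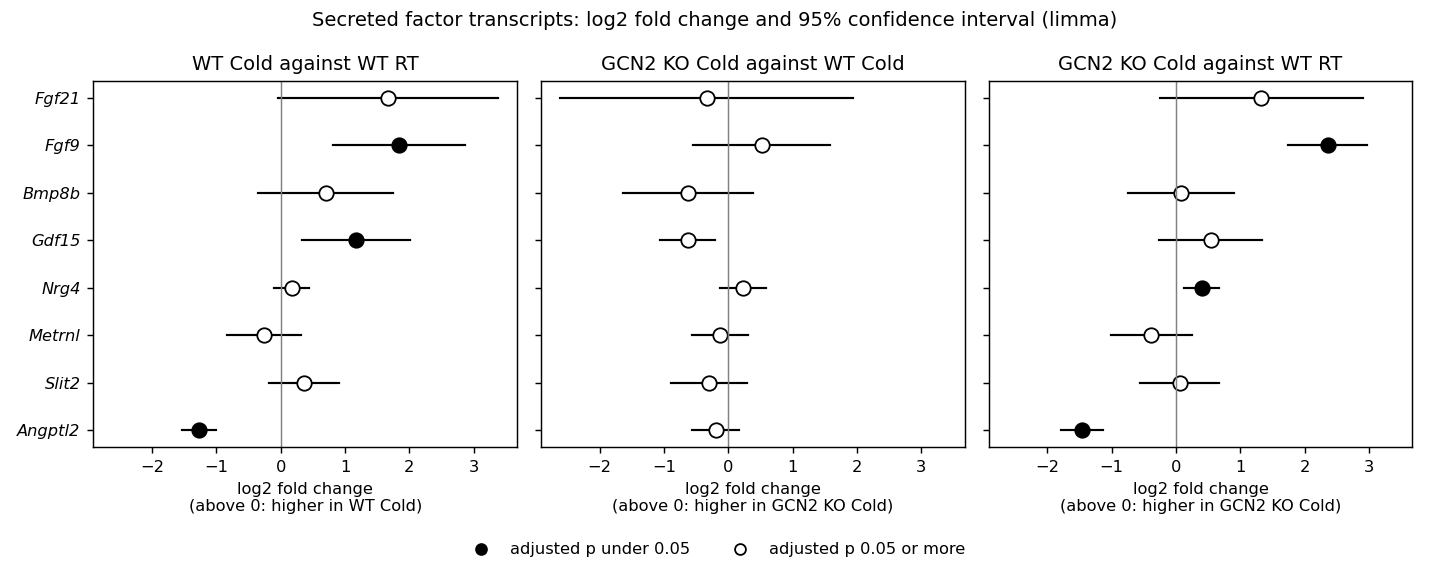
Log2 fold change (points) and 95% confidence interval (lines) of the 8 factors on the horizontal axis in the 3 comparisons; filled points have an adjusted p under 0.05. Angptl2 lies at -1.27 and -1.46 against WT RT with narrow intervals, the intervals of Fgf21 are the widest of the 8 in each panel, and no point is filled between the cold groups.

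Fgf21 (ENSMUSG00000030827, chr7:45613886-45615490, minus strand) was a low transcript in WT RT, at 1.05, 0.715 and 0.558 CPM in libraries A, B and C. In WT Cold it was at 1.28, 1.11 and 8.54 CPM. Under the GCN2 KO Cold label it was at 0.651, 1.29 and 5.54 CPM. The high values were those of library C in each cold group, resting on 246 and 150 reads, while the 4 other cold libraries had 18 to 37 reads and lay close to the 17 to 32 reads of WT RT. Library C was 7.15 times the mean of A and B in WT Cold, 5.72 times under the GCN2 KO Cold label, and 0.632 times in WT RT. The log2 fold change was 1.66 in WT Cold against WT RT (95% CI -0.045 to 3.37, adjusted p = 0.131, limma) and 1.33 in GCN2 KO Cold against WT RT (-0.25 to 2.90, adjusted p = 0.172, limma). DESeq2 on the recovered reads called Fgf21 higher in both, at log2 fold changes of 2.35 (adjusted p = 0.00411) and 1.90 (adjusted p = 0.0155), in tables where it called 14.9% and 16.6% of genes higher, and edgeR did not (adjusted p = 0.0713 and 0.0824). Without library C the differences were 0.71 (adjusted p = 0.163, limma) and 0.47 (adjusted p = 0.465, limma). Without library A of GCN2 KO Cold, Fgf21 passed in limma against WT RT (adjusted p = 0.0348). Between the cold groups the log2 difference was -0.34 with an interval of -2.61 to 1.94, which leaves large differences in either direction possible. Leaving library C out of both groups, an alternative chosen after seeing the data, gave -0.24. Those 2 libraries are also the ones with low Y-linked and high Xist levels, and the part of that difference in the Fgf21 values was not tested.

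**Figure D3:**
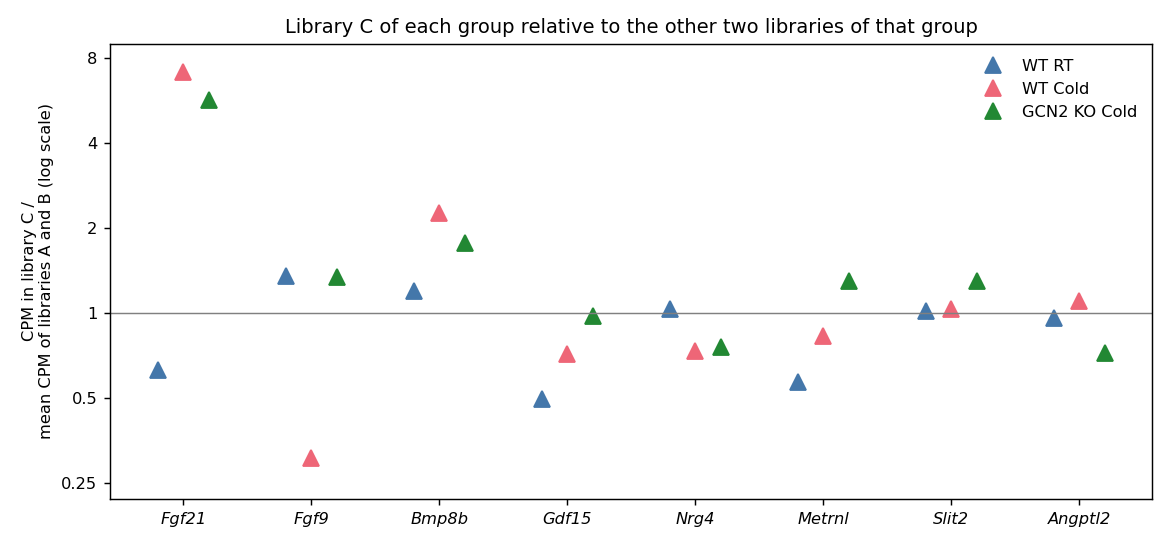
CPM in library C of each group divided by the mean CPM of libraries A and B of that group, on a log vertical axis, for the 8 factors. Fgf21 lies at 7.15 (WT Cold) and 5.72 (GCN2 KO Cold) and Bmp8b at 2.26 and 1.77, while Fgf9 lies at 0.307 and 1.34.

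Fgf9 (ENSMUSG00000021974, chr14:58070547-58112720, plus strand) was called higher in both cold groups against WT RT. It was at 1.61, 1.95 and 2.43 CPM in WT RT, on only 49 to 74 reads. WT Cold libraries had 10.5, 9.42 and 3.06 CPM, on 88 to 303 reads. GCN2 KO Cold libraries had 10.2, 6.22 and 11 CPM, on 179 to 298 reads. Every cold library was above every WT RT library, with WT Cold C the nearest. The log2 fold change was 1.84 ± 0.44 (SE) in WT Cold against WT RT (adjusted p = 0.0192, limma), or 3.57-fold, and 2.35 ± 0.27 (SE) in GCN2 KO Cold against WT RT (adjusted p = 0.000646, limma), or 5.11-fold. The first call was lost when WT RT A, WT RT B, WT Cold A or WT Cold B was left out (adjusted p = 0.0593 to 0.0725, limma) and was at 2.38 without WT Cold C (adjusted p = 0.000433, limma). The second was kept in each of the 15 alternatives. The cold groups differed by 0.52 (95% CI -0.55 to 1.58, adjusted p = 0.645, limma), and the value turned to -0.19 without library C of both groups.

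Angptl2 (ENSMUSG00000004105, chr2:33216069-33247717, plus strand) fell. It was at 77.7, 65.3 and 68.6 CPM in WT RT. In WT Cold the levels were 29.4, 23.9 and 29.6 CPM. GCN2 KO Cold levels were 23.2, 26.1 and 17.9 CPM. The cold and room temperature libraries did not overlap, and no library of either cold group reached 30 CPM. The log2 fold change was -1.27 ± 0.12 (SE) in WT Cold (adjusted p = 0.00049, limma), a level 0.415 times that of WT RT, and -1.46 ± 0.14 (SE) in GCN2 KO Cold (adjusted p = 0.000342, limma), 0.363 times that of WT RT. Both calls were kept in each of the 15 alternatives. The cold groups differed by -0.20 (95% CI -0.56 to 0.17, adjusted p = 0.612, limma), and the value was 0.021 without library C of both groups. Angptl2 is also made by macrophages and stromal cells, and the summed levels of markers of these cells were lower in the cold too. Not every marker followed: in WT Cold the means of Cd14 (10.43 against 8.40 CPM) and Dcn (221.0 against 205.2 CPM) were above those of WT RT. The summed level of 8 macrophage markers was 386.5 to 583.5 CPM in WT RT, 208.8 to 309.9 CPM in WT Cold and 154.3 to 230.0 CPM in GCN2 KO Cold, and 5 and 7 of the 8 fell, where 14.1% and 17.8% of all genes did. For 8 fibroblast and adipocyte precursor markers the sums were 1210 to 1423 CPM, 917.1 to 1032 CPM and 592.3 to 789.1 CPM, and 4 and 6 of the 8 fell. No marker on either list was at 0 in any library, and their part in the fall of Angptl2 was not tested. In bulk tissue, fewer cells of a type and less RNA per cell cannot be told apart.

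Gdf15 (ENSMUSG00000038508, chr8:70629393-70632456, minus strand) was at 2.10, 5.01 and 1.77 CPM in WT RT. It was at 6.70, 5.98 and 4.55 CPM in WT Cold. Its GCN2 KO Cold levels were 3.69, 3.09 and 3.33 CPM, the narrowest spread of the 3 groups. WT RT B overlapped with WT Cold, while the WT Cold and GCN2 KO Cold libraries did not overlap. The log2 fold change in WT Cold against WT RT was 1.17 ± 0.36 (SE), just inside the threshold (adjusted p = 0.0461, limma). It did not pass in edgeR (adjusted p = 0.0727), with CPM scaling in limma (adjusted p = 0.0687), in limma without the mean-variance trend (adjusted p = 0.0835), or in limma when WT RT A, WT RT C, WT Cold A or WT Cold B was left out (adjusted p = 0.124 to 0.135). GCN2 KO Cold differed from WT RT by 0.54 (95% CI -0.27 to 1.34, adjusted p = 0.272, limma), and without WT RT B it was 0.97 (adjusted p = 0.0207, limma). Gdf15 was the factor nearest to a call between the cold groups, at -0.63 (95% CI -1.06 to -0.20, unadjusted p = 0.00978, adjusted p = 0.185, limma), and its adjusted p stayed between 0.13 and 0.449 over the 16 alternatives, so the difference did not pass the correction over all genes.

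Bmp8b (ENSMUSG00000002384, chr4:123105165-123132099, plus strand) was at 2.20, 4.81 and 4.2 CPM in WT RT. In WT Cold it was at 5.42, 3.09 and 9.62 CPM. GCN2 KO Cold libraries were at 2.42, 2.96 and 4.77 CPM. The 3 groups overlapped, and library C was the highest of each cold group, as for Fgf21. The log2 differences were 0.70 in WT Cold against WT RT (95% CI -0.34 to 1.74), -0.63 in GCN2 KO Cold against WT Cold (-1.64 to 0.39) and 0.075 in GCN2 KO Cold against WT RT (-0.74 to 0.89), with adjusted p between 0.284 and 0.888 (limma). Exons of Bmp8b overlap Ppie and Gm17244 on the opposite strand over 472 bases (12.2%), and 5.50% of its 50-base words also occur in Bmp8a. The library kit is not stated to keep the strand, so reads in the shared part cannot be told apart, and the Bmp8b level is uncertain to that extent.

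Nrg4 (ENSMUSG00000032311, chr9:55220222-55326844, minus strand) was the most abundant of the factors and varied the least, with 1.53 times between its highest and lowest library. Its levels were 118, 114 and 121 CPM in WT RT. They were 139, 137 and 102 CPM in WT Cold. GCN2 KO Cold levels were 140, 155 and 112 CPM. Library C was the lowest of each cold group and lay below the lowest WT RT library. The log2 difference was 0.17 in WT Cold against WT RT (95% CI -0.10 to 0.44, adjusted p = 0.318, limma), and without WT Cold C it was 0.30 (adjusted p = 0.0253, limma). The difference of GCN2 KO Cold from WT RT was 0.40 ± 0.12 (SE, adjusted p = 0.034, limma), a call that was kept in 8 of 15 alternatives. It was lost with CPM scaling (0.19, adjusted p = 0.214, limma), with all 9 libraries in the fit (0.19, adjusted p = 0.306, limma), without the mean-variance trend (adjusted p = 0.0925, limma) and when WT RT A, WT RT B, GCN2 KO Cold A or GCN2 KO Cold B was left out (adjusted p = 0.0775 to 0.102, limma). It was 0.23 between the cold groups (95% CI -0.12 to 0.58). Exons of Nrg4 share 545 bases (8.97%) with Fbxo22 and Gm15625 on the other strand.

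Metrnl (ENSMUSG00000039208, chr11:121701544-121716306, plus strand) was at 17.5, 30.2 and 13.6 CPM in WT RT. It was at 17.1, 15.4 and 13.4 CPM in WT Cold and at 14.1, 9.66 and 15.4 CPM under the GCN2 KO Cold label. Library B was the highest of WT RT, and the groups overlapped. Log2 differences were -0.25 (95% CI -0.83 to 0.32), -0.13 (-0.57 to 0.30) and -0.39 (-1.02 to 0.24) in WT Cold against WT RT, GCN2 KO Cold against WT Cold and GCN2 KO Cold against WT RT, and the first turned to 0.049 without WT RT B.

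Slit2 (ENSMUSG00000031558, chr5:47983138-48307733, plus strand) was at 1.12, 1.14 and 1.15 CPM in WT RT, on 34 to 35 reads. It was at 1.52, 1.22 and 1.42 CPM in WT Cold and at 0.904, 0.973 and 1.22 CPM under the GCN2 KO Cold label. All WT Cold libraries were above all WT RT libraries, by a small margin. The log2 differences were 0.36 (95% CI -0.19 to 0.91), -0.31 (-0.89 to 0.28) and 0.054 (-0.55 to 0.66) in the same order, and none passed. These values rest on 25 to 44 reads in a library.

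The pattern of each factor over the 9 libraries was compared with that of 14037 genes with a mean level of at least 1 CPM, by Pearson's r of log2(CPM + 1). The 9 points share groups and libraries, so these values are descriptions. Fgf21 was most like Rab9 (r = 0.97), Kdm6a (0.95) and Zfp119b (0.94), and all 3 were highest in library C of each cold group. Kdm6a, an X-linked histone demethylase, was at 25.3 CPM in WT Cold C and 21.3 CPM in GCN2 KO Cold C against 14.0 to 16.4 CPM elsewhere. Fgf9 was most like Zfp131, mt-Tf and Armc1 (0.99, 0.98 and 0.98), and Angptl2 was most like Syne1, Cep57l1 and Cul4a (0.996, 0.994 and 0.994). Syne1, which encodes a nuclear envelope protein, was at 37.7 to 40.6 CPM in WT RT and 10.7 to 17.1 CPM in the cold libraries. Gdf15 was most like Ccdc130, Trib1 and Vps37b (0.97, 0.95 and 0.95). Bmp8b was most like Ap1m1, Psmd4 and Kdm3a (0.97, 0.94 and 0.91), and Nrg4 was most like Ints10, Fbxo9 and Micall1 (0.96, 0.94 and 0.93). Metrnl was most like Sspo, Stard3 and Gmip (0.96, 0.94 and 0.94), and Slit2 was most like Ppp4r2, Vipas39 and Pabpc4 (0.96, 0.95 and 0.95).

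Of 24 receptors and co-receptors of the factors tested, 5 rose and 3 fell from WT RT to WT Cold, in a table where 13.6% of all genes rose and 14.1% fell, and their median change was 0.27 on the log2 scale (0.003 for all genes). Klb, the co-receptor that FGF21 requires, was at 29.8 to 42.4 CPM in WT RT, 14.8 to 17.6 CPM in WT Cold and 12.0 to 17.9 CPM in GCN2 KO Cold. It fell by 1.04 on the log2 scale in WT Cold (adjusted p = 0.00135, limma), while Fgfr1 did not pass (-0.19, adjusted p = 0.328, limma). Library C of the cold groups, where Fgf21 was high, had 15.7 and 12.0 CPM of Klb, the latter the lowest of the 9 libraries. Erbb4, a receptor of neuregulins, went from 3.25 to 3.87 CPM in WT RT to 0.765 to 0.898 CPM in WT Cold (log2 fold change -1.98, adjusted p = 0.000918, limma). The activin type I receptor Acvr1c and the BMP type II receptor Bmpr2 rose by 0.79 and 0.52. Against WT RT, GCN2 KO Cold had 3 receptors higher and 7 lower (16.4% and 17.8% of all genes). There Klb fell by 0.98 (adjusted p = 0.00327, limma) and Fgfr1 by 0.49 (adjusted p = 0.0279, limma). None of the 24 passed in limma between the cold groups (3 at an unadjusted p under 0.05). Bmpr1b and Il6st, the shared receptor chain of the IL6 family, came nearest at -1.39 and -0.30 (adjusted p = 0.185 and 0.186, limma). Bmpr1b rests on 17 to 28 reads in WT Cold libraries and 5 to 11 in GCN2 KO Cold libraries. Its value ranged from -1.67 to -0.50 over the alternatives. Il6st passed only with all 9 libraries in the fit (adjusted p = 0.039, limma). Gfral, the receptor of GDF15, was not listed in the tables used here.

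**Figure D4:**
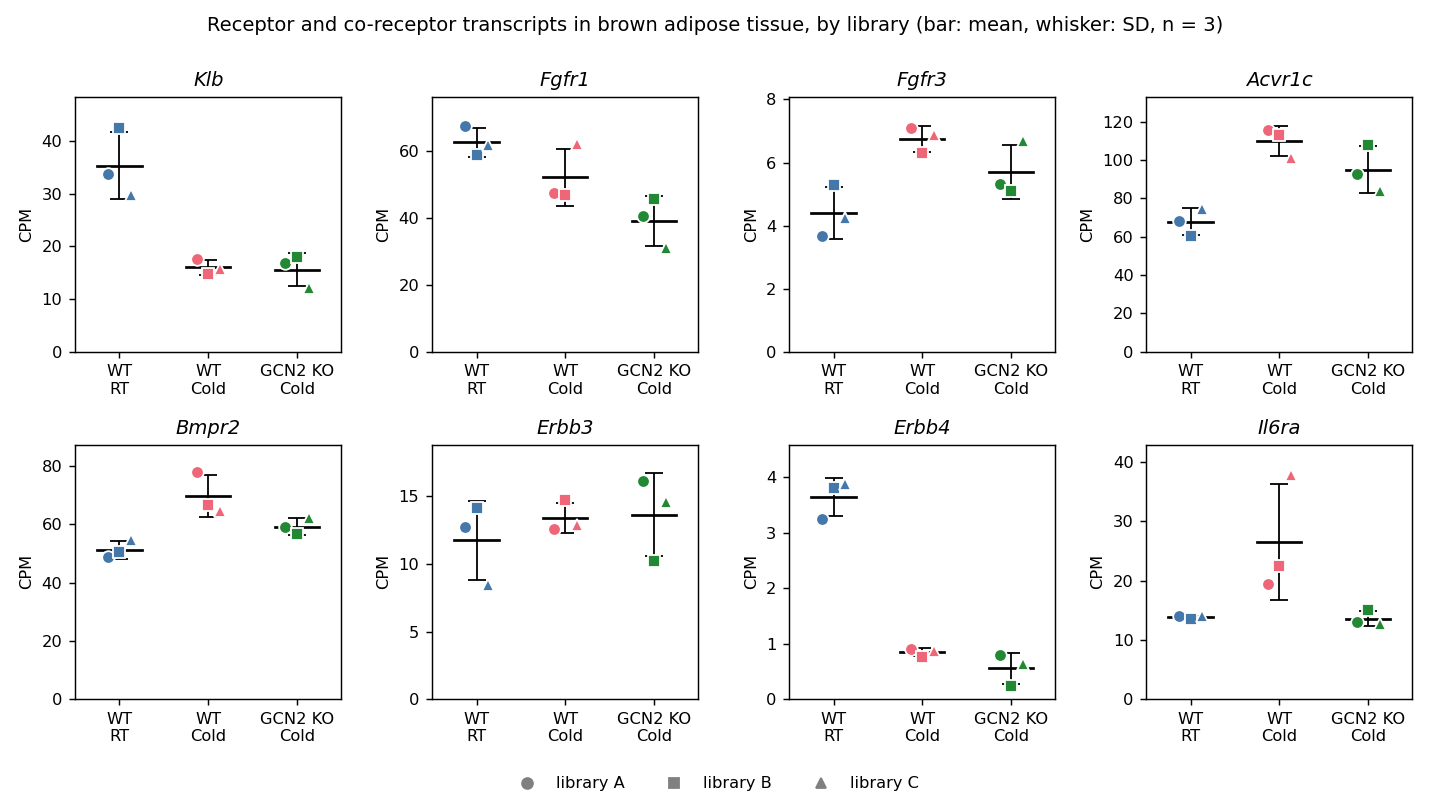
Levels of 8 receptors and co-receptors in each library, in CPM on the vertical axis, by group on the horizontal axis; symbols mark libraries, bars the mean and whiskers the SD (n = 3). Klb and Erbb4 are lower in all 6 cold libraries than in WT RT, with Klb at 29.8 to 42.4 CPM there, and Acvr1c is higher in all 6.

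Genes known to be induced downstream of FGF, BMP and gp130 receptors were also counted. Of 16 tested, 8 rose and 0 fell in WT Cold against WT RT, where 13.6% and 14.1% of all genes did, with a median of 0.43 (0.003 for all genes). Spry4, a feedback inhibitor of FGF signalling, rose by 2.32, the ERK phosphatases Dusp6 and Dusp4 by 1.15 and 0.45, and Smad7, a feedback inhibitor of TGF-beta and BMP signalling, by 0.74. The rise of Dusp4 was not called without WT Cold B (adjusted p = 0.0559, limma). GCN2 KO Cold against WT RT gave 7 that rose and 1 that fell (16.4% and 17.8% of all genes). The gene that fell was Dusp4, which was also the only gene of the 6 related lists that limma called between the cold groups in their own table. It was at 55.2 to 62.0 CPM in WT Cold and 23.3 to 29.0 CPM in GCN2 KO Cold (log2 fold change -1.03, adjusted p = 0.0295, limma), and with any single library left out its adjusted p was 0.0509 to 0.181 at log2 fold changes of -1.10 to -0.93. Stat3 was at -0.39 there (adjusted p = 0.177, limma), and passed only with all 9 libraries in the fit (adjusted p = 0.0342, limma).

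Transcription factors and cofactors known to act on Fgf21 or Gdf15 and genes of the integrated stress response form another list. Of 9 tested, 4 rose and 1 fell in WT Cold against WT RT (13.6% and 14.1% of all genes). The coactivator Ppargc1a rose by 2.70, Atf4 by 1.2 and Atf5 by 0.67, and the nuclear receptor Ppara fell by 0.51. The Atf5 call was kept in 9 of 15 alternatives and was lost, among others, when WT RT A, WT RT B, WT Cold A or WT Cold B was left out (adjusted p up to 0.0864, limma). Atf4 was at 102 to 159 CPM in WT RT, 243 to 283 CPM in WT Cold and 174 to 273 CPM in GCN2 KO Cold, and all 6 cold libraries were above the 3 of WT RT. Of the 9 genes of this list, 3 were highest in library C of each cold group, as Fgf21 was, namely Atf4 and the ATF4 targets Trib3 and Chac1, the last 2 named after their values were seen. The other 6 (Ddit3, Atf3, Atf5, Asns, Ppara and Ppargc1a) were highest in library C of only 1 cold group, and Atf5 was lowest in WT Cold C at 365 CPM, against 485 and 474 CPM in A and B. The share of all genes highest in library C of both cold groups was not counted. These counts are thus a description and cannot set the list apart from other genes. Trib3 was at 7.32 to 8.19 CPM in WT RT, at 8.19, 9.49 and 29.7 CPM in WT Cold and at 6.65, 9.87 and 13.0 CPM in GCN2 KO Cold. Chac1 was at 6.37 to 8.67 CPM in WT RT, at 3.73, 3.75 and 21.3 CPM in WT Cold and at 2.17, 2.22 and 5.14 CPM in GCN2 KO Cold, so that its GCN2 KO Cold libraries were all below WT RT. GCN2 KO Cold against WT RT gave 4 that rose and 2 that fell (16.4% and 17.8% of all genes), with Atf4 up by 0.99 (adjusted p = 0.00632, limma). With limma, 0 of 9 passed between the cold groups (1 at an unadjusted p under 0.05), with Ppara at -0.38 and Asns, an ATF4 target, at 0.19 (adjusted p = 0.302 and 0.477, limma).

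Of 30 other genes of the same families tested, 1 rose (Fgf1, by 0.74) and 7 fell in WT Cold against WT RT. The shares of all genes were 13.6% and 14.1%, and the median of the 30 was -0.25. Ctf1, a cytokine of the IL6 family, fell by 1.08, Fgf14 by 1.81, Angptl6 by 0.86 and Angptl1 by 1.01, the last call being lost without WT RT A (adjusted p = 0.0544, limma). The fall of Angptl2 was thus larger than those of Angptl6 and Angptl1 in value, a difference that was not tested. Against WT RT, GCN2 KO Cold had 1 that rose, again Fgf1 (by 1.26), and 8 that fell, beside 16.4% and 17.8% of all genes. Of 30, 0 passed between the cold groups (7 at an unadjusted p under 0.05), with Angptl8 at 0.43 and Fgf18 at 1.2 (adjusted p = 0.202 and 0.216, limma). Fgf18 rests on 6 to 10 reads in WT Cold libraries and 13 to 22 in GCN2 KO Cold libraries. Its value ranged from 0.37 to 1.44 over the alternatives. Among 15 other brown fat factors, 4 rose and 3 fell in WT Cold (median 0.13), beside 13.6% and 14.1% of all genes, including the chemokine Cxcl14 (0.997), endothelin Edn1 (0.99) and Vegfa (0.44) upward and the lipid transfer protein Pltp downward (-0.66). The Vegfa call was lost with all 9 libraries in the fit (adjusted p = 0.0842, limma). Against WT RT, 3 rose and 3 fell in GCN2 KO Cold, near the 16.4% and 17.8% of all genes. Of 14 tested, 0 passed between the cold groups (1 at an unadjusted p under 0.05), with Vegfb at 0.36 and Pltp at -0.22 (adjusted p = 0.154 and 0.370, limma).

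Of 9 proteases that cut or shed such factors or their receptors, 4 rose and 1 fell in WT Cold (median 0.10), where 13.6% and 14.1% of all genes did, among them the sheddase Adam17 (0.57) and the proprotein convertases Pcsk5 (0.92), Pcsk6 (0.56) and Pcsk7 (0.47). The Pcsk5 call was lost without WT RT B or C, that of Pcsk6 without WT RT A, WT RT B or WT Cold A and that of Pcsk7 without WT RT A or WT Cold A (adjusted p up to 0.0511, 0.0634 and 0.0575, limma). Pcsk6 was also lost without the mean-variance trend and with all 9 libraries in the fit (adjusted p up to 0.0857, limma). GCN2 KO Cold had 3 higher and 4 lower than WT RT (16.4% and 17.8% of all genes). In limma 0 of 9 passed between the cold groups (4 at an unadjusted p under 0.05), where 0.178% of all genes were called higher and 0.227% lower, with Furin at -0.29 and Pcsk5 at -0.46 (adjusted p = 0.172 and 0.278, limma). Furin passed only with all 9 libraries in the fit (adjusted p = 0.0499, limma). The summed level of 10 skeletal muscle markers was 253 to 1146 CPM under the GCN2 KO Cold label, lowest in library C, against 2003 to 3339 CPM in WT Cold and 2184 to 2617 CPM in WT RT. The part of these markers in any difference between the cold groups was not tested.

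**Figure D5:**
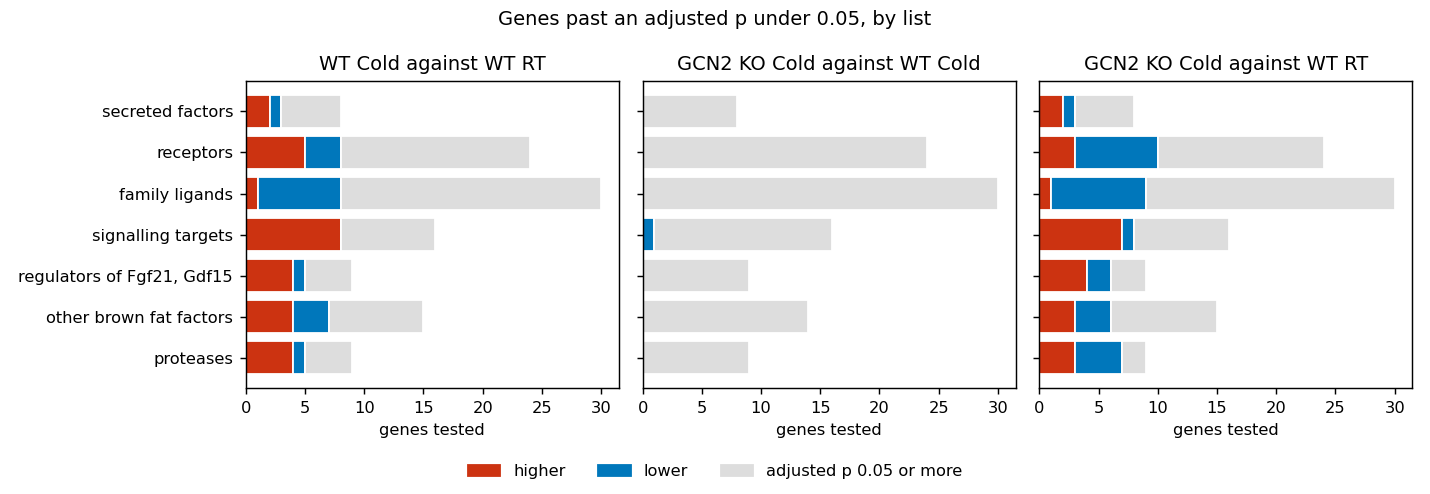
Number of genes tested (bar length, horizontal axis) in the 8 listed factors and 6 related lists, coloured by whether they were higher, lower or not past an adjusted p of 0.05 in each comparison. In WT Cold against WT RT, signalling targets have 8 higher and 0 lower. Other genes of the same families, labelled family ligands, have 1 higher and 7 lower there. Dusp4 is the single limma call between the cold groups.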

How the data were processed

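Poly(A) RNA of BAT was sequenced from 9 samples, 3 per group. Per the labels and the submitters' processing notes, the authors trimmed reads with Trimmomatic 0.36, aligned them with STAR 2.5.2b to GRCm39, counted them with featureCounts (Subread 1.5.2) and compared groups with DESeq2. The 3 tables the authors deposited, 1 per comparison, hold normalized signal: gene counts scaled by DESeq2 size factors that differ between tables. Fold changes and p-values of the authors in the same tables were not used. Dividing by the smallest step in a column gave whole reads for 100% of values (tolerance 0.001 reads). There were 0 columns of other samples. Table membership of a code gave its group.

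Groups were compared within a table with limma 3.58.1 (R 4.3.3) on log2(value + 1), with a mean-variance trend. A call was an adjusted p under 0.05. The study's second threshold, 1 on the absolute log2 scale, was counted too. DESeq2 1.42.0 and edgeR 4.0.16 on the recovered reads, pseudocounts, filters on low values, CPM scaling, a fit of all 9 libraries and each library left out in turn were alternatives. Fits were tested on simulated data. Levels across groups are CPM of recovered reads over 16608 genes. GENCODE M21 (GRCm38) gave gene spans and lengths for 16900 of 16937 identifiers, and promoters are from RefSeq. Beside the listed factors, text names the 4 genes of each list with the smallest adjusted p in WT Cold against WT RT, the 2 with the smallest in GCN2 KO Cold against WT Cold and the 3 genes most like each factor. Receptors of a factor are named beside it, and Fgf1, Trib3, Chac1, Ddit3 and Atf3 were chosen after their values were seen. The factors and the lists were chosen with earlier results of these data known.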

Additional observations from a re-analysis of the deposited data

How the results depend on the processing

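Angptl2 (WT Cold and GCN2 KO Cold against WT RT) and Fgf9 (GCN2 KO Cold against WT RT) kept direction and call under each of 15 alternatives. The number of factors called in WT Cold against WT RT, 3 in the report, was 1 to 4 when a library was left out (1 to 3 past both thresholds), and in GCN2 KO Cold against WT Cold it was 0 under each of 16 alternatives. In GCN2 KO Cold against WT RT it was 2 to 4. Directions turned in these cases, none of which passed the threshold, and the cause was not tested. Without library C of both groups, GCN2 KO Cold against WT Cold was -0.19 for Fgf9 and 0.021 for Angptl2. With CPM scaling, or with all 9 libraries in the fit, GCN2 KO Cold against WT RT was -0.10 for Bmp8b and -0.074 for Slit2. CPM scaling moved the median of all genes in that comparison from 0.009 to -0.15, so both factors stayed above the median. When a library was left out, log2 differences ranged for Metrnl from -0.47 to 0.049 (WT Cold against WT RT) and from -0.27 to 0.067 (GCN2 KO Cold against WT Cold), for Fgf21 from -1.19 to 0.61 and for Fgf9 from -0.028 to 0.82 (both GCN2 KO Cold against WT Cold), and for Bmp8b from -0.28 to 0.29 and for Slit2 from -0.071 to 0.15 (both GCN2 KO Cold against WT RT).

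CPM scaling changed the share of higher among called genes from 49.0% to 35.2% in WT Cold against WT RT, from 43.9% to 13.5% in GCN2 KO Cold against WT Cold and from 48.0% to 23.4% in GCN2 KO Cold against WT RT. The count of all genes called between the cold groups, 66 in limma, was 6 without the trend, 526 with DESeq2, 434 with all 9 libraries, 168 without library C of both groups and 3 to 24 when a single library was left out. In WT Cold against WT RT it was 4624, and 2907 to 5679 when a library was left out. No paired analysis was possible because the columns of the tables carry no replicate numbers. Fgf21, Slit2, Bmp8b and Gdf15 rest on under 300 reads in each library. Fgf9 was little above that limit, with 49 to 74 reads in WT RT and at most 303 in a cold library. With a filter at a mean normalized count of 50, Slit2 in each comparison and Fgf21 in GCN2 KO Cold against WT RT had no value.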
